A study of Rattus norvegicus with 16 samples.

Results

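The Cyp4 cytochrome P450 enzymes of rat liver were followed through 7 genes, Cyp4a1, Cyp4a2, Cyp4a3, Cyp4a8, Cyp4b1, Cyp4f1 and Cyp4f4. Their probes were found by name, as the non-control probes whose RefSeq identifier belongs to one of those symbols. The 7 genes had 8 probes among the 30367 probes of the arrays, and Cyp4a8 was the one with 2. Of these, 6 probes for 5 genes gave a liver signal well above background and were tested, among 12072 genes or identifiers. The probes of Cyp4a2 and Cyp4b1 were not well above background on any array and were not tested.

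Liver RNA came from male Sprague-Dawley rats aged 21 days, whose dams were dosed through gestation and nursing until postnatal day 20. M pups stayed with dams given 1 mg/kg/day of a mixture in corn oil, which held methyl mercury, polychlorinated biphenyls and organochlorine pesticides, and C pups with dams given corn oil alone. MM pups were moved at birth from one mixture-treated dam to another, and CC pups from one corn oil dam to another. Each group had 4 arrays, and each array held the pooled RNA of 2 pups out of 8 per group. No label gives the litter of a pool, so the p-values measure the spread between pools. The liver pool was always labelled with Cy5, and a universal reference RNA made from rat cell lines with Cy3, so dyes were not swapped. All 8 arrays of M and MM were on slide 2 and all 8 of C and CC on slide 1, so the mixture and the slide cannot be told apart. Values below are log2 ratios of Cy5 over Cy3 after background correction and normalization within each array. A gene was called where limma's p-value, adjusted over all genes by Benjamini and Hochberg's method, was below 0.05.

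Enzymes of the Cyp4 family hydroxylate fatty acids at or near the terminal (omega) carbon, the first step of a route that ends in dicarboxylic acids and peroxisomal beta-oxidation. In rodent liver the Cyp4a genes are well-known targets of PPARalpha, the receptor that senses fatty acids and peroxisome proliferators. Members of the Cyp4f branch act on leukotrienes and other long-chain fatty acids, and Cyp4b1 is best known as a lung enzyme.

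All 8 hepatocyte markers passed the filter on liver signal. Each array's weakest within-group correlation over all genes lay between 0.968 and 0.985, and CC 1 and MM 3 departed most from their groups. Arrays CC 1 and CC 2 carried skeletal muscle transcripts. Only 3 of 8 muscle markers passed the filter on signal, which asks for 3 of 4 arrays of a group, and Acta1, Ckm, Myh4 and Myl1 did not pass. The summed Cy5 level of these 3 was 690 to 729 in MM and 757 to 18437 in CC, and 702 to 869 in M against 705 to 775 in C. In MM minus CC, 2 of the 3 muscle markers were called lower, beside 12.3% of all genes, and 0 in Cy5 alone. Without CC 1 and CC 2 the same 2, Tnnc2 and Tnnt1, were still called lower, beside 6.65% of all genes. Summed exocrine pancreas markers, of which 2 of 7 passed the filter, ran from 263 to 3284 in MM and from 224 to 12212 in CC, and from 255 to 1715 in M against 238 to 319 in C. The part of these transcripts in the results was not tested, and MM minus CC is also given without both arrays. In bulk liver, fewer cells of a type and less RNA per cell cannot be told apart.

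Among pups raised with their own dams, none of the 5 tested Cyp4 genes was called between M and C, where 20.4% of all genes were called, and limma gave 0 of the 5 and 4055 of all genes at an unadjusted p below 0.05. For none of the 5 did the M and C arrays separate without overlap, as they did for 25.1% of all genes. Among cross-fostered pups, 1 of 5 was called between MM and CC, where 20.1% of all genes were called and 12.3% were called lower. It was Cyp4a1, whose ratio in MM was 0.599 times that in CC. The median difference over the 5 genes was -0.02 for M minus C, beside -0.05 over all genes, and 0.02 for MM minus CC, beside -0.06 over all genes.

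**Figure D1:**
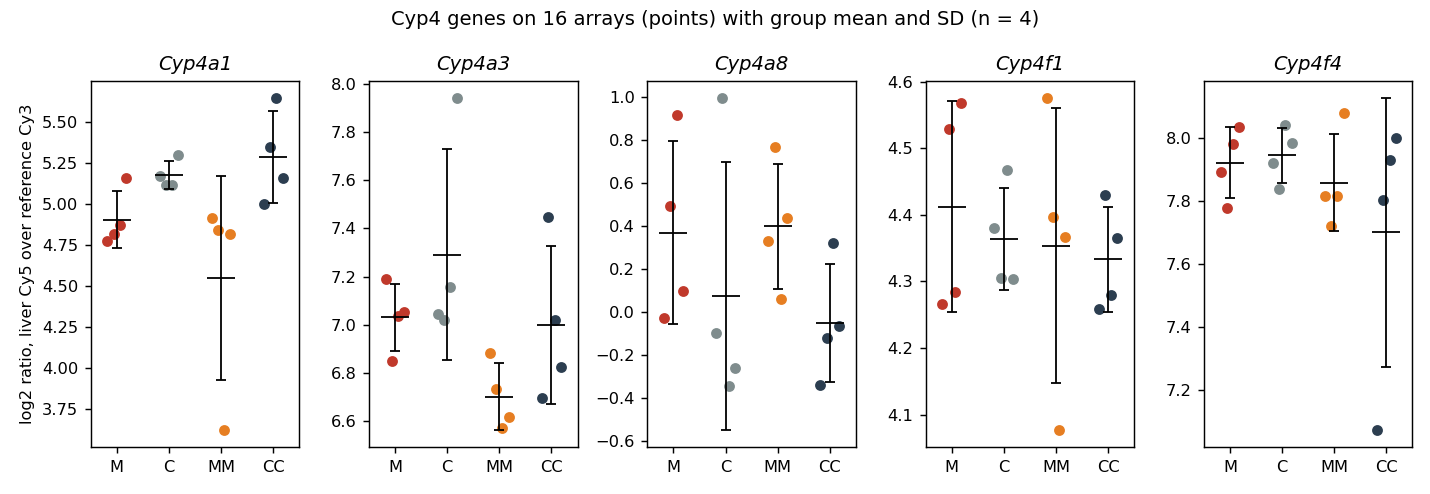
Log2 ratio of liver Cy5 over reference Cy3 for the 5 tested Cyp4 genes. Each point is an array (4 per group), and the black lines give the group mean and SD. For Cyp4a1 the MM array at 3.62 lies apart from the other MM arrays, and all MM arrays lie below all CC arrays. Each gene has its own vertical scale.

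Cyp4a1 encodes a fatty acid omega-hydroxylase that prefers medium-chain fatty acids such as lauric acid. Its log2 ratio was 4.91, 4.84, 3.62 and 4.82 on arrays MM 1 to MM 4, against 5.00, 5.34, 5.65 and 5.16 on CC 1 to CC 4. All MM arrays were below all CC arrays, which held for 22% of all genes in either direction and for 13.3% in this one. The mean was 4.55 ± 0.62 in MM and 5.29 ± 0.28 in CC (SD, n = 4 each). The difference was -0.74 (SE 0.222, 95% confidence interval -1.21 to -0.27, adjusted p = 0.0281). In pups kept with their own dams it was 4.77, 4.82, 4.87 and 5.16 on M 5 to M 8, against 5.30, 5.17, 5.11 and 5.12 on C 9 to C 12. There 3 of the 4 M arrays lay below all C arrays and M 8 lay among them. The difference of -0.27 (interval -0.74 to 0.20, adjusted p = 0.427) did not pass. The spread behind that interval is shared by all 4 groups, while the SD was 0.17 in M and 0.09 in C. With only the M and C arrays fitted, limma gave the same difference with an SE of 0.096 (adjusted p = 0.0723). That did not pass either.

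The size of the Cyp4a1 difference rested in part on 1 array. Array MM 3 was at 3.62, and the next lowest MM array at 4.82. Without MM 3 the difference between MM and CC was -0.43 (SE 0.128, adjusted p = 0.0298). In Cy5 alone the level was 9.69 on MM 3, against 10.65 to 10.83 on the other MM arrays, while Cy3 on MM 3 was at 6.07, against 5.83 to 5.92 on the others. The 2 spots of the probe gave ratios with an SD of at most 0.17 on any array. The Cy5-only difference between MM and CC was -0.68 (SE 0.189) and was not called (adjusted p = 0.0663). In Cy5 alone none of the 5 Cyp4 genes was called, where 2.9% of all genes were called in MM minus CC and 3.2% in M minus C. At an unadjusted p below 0.05 limma gave 3 of the 5 in MM minus CC and 1 of the 5 in M minus C, beside 1867 and 2182 of all genes. In MM minus CC these were Cyp4a1 and Cyp4f1 (-0.19), both lower, and Cyp4a8 (0.63), which was higher. In M minus C it was Cyp4a3 (-0.45).

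The call of Cyp4a1 also depended on other choices. Leaving out CC 2 or CC 3 gave differences of -0.72 (adjusted p = 0.0644) and -0.62 (adjusted p = 0.0861). With both CC 1 and CC 2 left out it was -0.86 (adjusted p = 0.0613). In array row 1 alone, with MM 1 and MM 2 against CC 1 and CC 2, it was -0.30 (adjusted p = 0.211). In row 2 alone, with MM 3 and MM 4 against CC 3 and CC 4, it was -1.19 (adjusted p = 0.0664). With the log ratio of the scanner software the call went the other way round, with -0.68 (adjusted p = 0.0551) for MM minus CC and -0.79 (adjusted p = 0.0281) for M minus C. In every setting tried the Cyp4a1 difference was negative in both comparisons. The difference of the differences was -0.47 (SE 0.314, interval -1.14 to 0.20), and -0.16 without MM 3, so Cyp4a1 was not shown to respond differently in cross-fostered and own-dam pups.

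**Figure D2:**
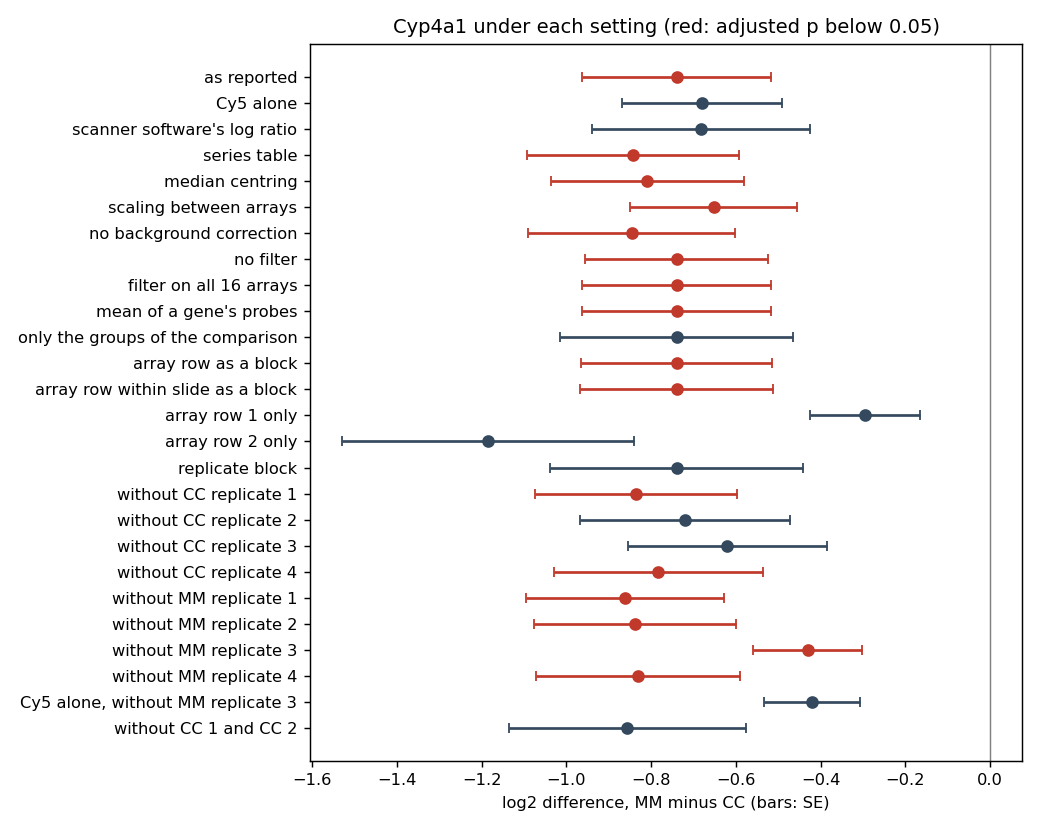
Difference of the Cyp4a1 log2 ratio, MM minus CC, as reported and under each other setting. Points are the differences, bars their standard errors, and red marks an adjusted p below 0.05. All values lie below 0, from -1.19 with array row 2 only to -0.30 with row 1 only.

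Cyp4a2 and Cyp4a3 both lie on chromosome 5 and encode arachidonate and fatty acid omega-hydroxylases of very similar sequence. Their promoters are shown because the windows are close to identical and the array gave a measured level for Cyp4a3 alone. Both windows run from 250 bases before to 50 after the start that the RefSeq promoter table uses, which for Cyp4a3 lies inside the outer end of the gene record (GRCr8, minus strand, Cyp4a2 at chr5:134170859-134171158 and Cyp4a3 at chr5:134352187-134352486). Capitals mark AGGTCA, the hexamer that nuclear receptors such as PPARalpha with its partner bind.
Cyp4a2: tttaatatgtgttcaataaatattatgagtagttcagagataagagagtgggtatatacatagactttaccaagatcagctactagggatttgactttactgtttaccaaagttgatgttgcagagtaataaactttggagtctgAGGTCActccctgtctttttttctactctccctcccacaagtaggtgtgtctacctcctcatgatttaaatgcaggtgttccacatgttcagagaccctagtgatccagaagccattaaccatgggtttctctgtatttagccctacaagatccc
Cyp4a3: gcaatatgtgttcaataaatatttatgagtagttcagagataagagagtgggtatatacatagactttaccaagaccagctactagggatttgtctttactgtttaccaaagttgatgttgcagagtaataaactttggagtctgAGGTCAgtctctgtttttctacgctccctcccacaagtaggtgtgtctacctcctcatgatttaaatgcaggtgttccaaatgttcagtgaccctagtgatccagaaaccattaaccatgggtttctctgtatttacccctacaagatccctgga
The 2 windows were identical at 93.1% of 305 aligned positions, against 55.8% between Cyp4a3 and Cyp4a8. Each holds the hexamer once, at position -105 from that start, on the plus strand of the printed sequence. Of the 33469 promoters searched on both strands, 16.2% hold it, and of the Cyp4 windows given, those of Cyp4a8, Cyp4b1 and Cyp4f1 do not. A match is a description of letters and not of binding.

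The Cyp4a2 probe read 62.8 to 79.3 in Cy5 over a local background of 67 to 74.3, and was well above background on 0 of 16 arrays. The Cyp4a3 probe read 1625 to 6089 and was well above background on all 16. How far either probe tells the similar transcripts apart was not tested.

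The log2 ratio of Cyp4a3 was 7.19, 6.85, 7.04 and 7.05 on M 5 to M 8, against 7.94, 7.05, 7.02 and 7.16 on C 9 to C 12. Array C 9 was the highest of all 16, and the groups overlapped. The difference was -0.26 (interval -0.65 to 0.13, adjusted p = 0.350), and -0.04 without C 9. On MM 1 to MM 4 it was 6.89, 6.73, 6.57 and 6.62, against 6.70, 7.45, 7.02 and 6.83 on CC 1 to CC 4. These groups overlapped too, with CC 1 and CC 4 below MM 1. The difference was -0.30 (interval -0.69 to 0.10, adjusted p = 0.284), -0.15 without CC 2 and -0.22 without CC 1 and CC 2. The Cy3 signal of this probe was not well above background on any array, so the size of the ratio is no measured fold over the reference. In Cy5 alone, over both ways of rearing, the mean of M and MM was lower than that of C and CC by a log2 difference of -0.40 (SE 0.119, adjusted p = 0.0405). Cyp4a3 was the 1 of 5 called in that comparison, where 10.9% of all genes were called. It is also the comparison of slide 2 with slide 1. Array C 9 was at 13.19 in Cy5, against 12.32 to 12.47 on the other C arrays. No fit of this comparison without C 9 is given.

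Cyp4a8, a further fatty acid hydroxylase of the Cyp4a cluster, had positive differences in both comparisons, and neither passed. Its brighter probe gave -0.03, 0.49, 0.91 and 0.10 on M 5 to M 8, against -0.26, -0.10, 1.00 and -0.34 on C 9 to C 12. Array C 11 was the highest of the 16, so the groups overlapped. The difference was 0.29 (interval -0.27 to 0.86, adjusted p = 0.474). Leaving out single arrays moved it between 0.11 without M 7 and 0.60 without C 11 (adjusted p = 0.0637), with 0.18 without C 9 and 0.16 without C 12. On MM 1 to MM 4 it gave 0.33, 0.77, 0.06 and 0.43, against -0.34, -0.12, 0.32 and -0.06 on CC 1 to CC 4. The MM arrays were mostly higher, with MM 3 below CC 3. On MM 3 the 2 spots of this probe lay apart, with an SD of 0.75. The difference was 0.45 (interval -0.12 to 1.01, adjusted p = 0.259), and 0.27 without CC 1 and CC 2. The dimmer probe gave 0.85, 2.05, 2.35 and 1.25 on M 5 to M 8, against 0.37, 0.98, 1.53 and 0.33 on C 9 to C 12. The groups overlapped, with M 6 and M 7 above all C arrays. On MM 1 to MM 4 it gave 1.38, 1.87, 0.89 and 1.26, against 0.67, 0.69, 0.94 and 0.77 on CC 1 to CC 4, and here MM 3 lay below CC 3. This probe differed by 0.83 (SE 0.309, adjusted p = 0.0701) in M minus C and by 0.58 (adjusted p = 0.201) in MM minus CC. It was well above background on 2 of 4 C arrays and on all 4 of every other group in Cy5, and on none in Cy3. The departures of the 2 probes from their group means correlated at r = 0.90 over the 16 arrays, which both probes share.

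**Figure D3:**
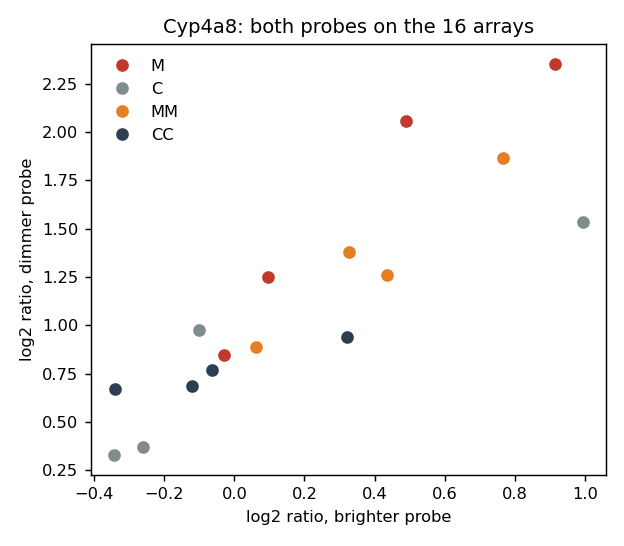
Log2 ratios of the 2 probes of Cyp4a8, the brighter on the horizontal and the dimmer on the vertical axis, one point per array and colours for the groups. The points run from -0.34 on the brighter probe to 1.00 on C 11, and the groups overlap.

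Cyp4f1 and Cyp4f4 lie on chromosome 7 and encode enzymes of the branch that hydroxylates leukotrienes and other long-chain fatty acids. Cyp4f1 had log2 ratios of 4.27, 4.53, 4.28 and 4.57 on M 5 to M 8, against 4.30, 4.38, 4.31 and 4.47 on C 9 to C 12. On MM 1 to MM 4 they were 4.58, 4.40, 4.08 and 4.37, against 4.26, 4.43, 4.28 and 4.36 on CC 1 to CC 4. The groups overlapped throughout, and MM 3 was again the lowest of the 16 arrays. The differences were 0.05 (interval -0.16 to 0.26) for M minus C and 0.02 (interval -0.19 to 0.23) for MM minus CC, with adjusted p = 0.777 and 0.910. Without CC 1 and CC 2 the last difference was 0.03. These intervals were the narrowest of the 5 genes.

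Cyp4f4 was printed on 10 spots per array. Its Cy3 signal, 48.2 to 85.7, was well above background on 14 of 16 arrays. Its log2 ratio was 7.89, 7.78, 7.98 and 8.03 on M 5 to M 8, against 7.98, 7.92, 7.84 and 8.04 on C 9 to C 12. On MM 1 to MM 4 it was 7.82, 7.72, 7.82 and 8.08, against 7.07, 7.80, 7.93 and 8.0 on CC 1 to CC 4. The groups overlapped, and CC 1, an array with muscle and pancreas transcripts, was the lowest of the 16. The differences were -0.02 (interval -0.35 to 0.30, adjusted p = 0.934) for M minus C and 0.16 (interval -0.17 to 0.48, adjusted p = 0.510) for MM minus CC. Without CC 1 the last was -0.05 (adjusted p = 0.746), and without CC 1 and CC 2 it was -0.11. Its sign was the opposite one in 5 of 25 other settings, these fits among them.

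Cyp4b1 read 75.5 to 96.5 in Cy5 over a local background of 65.5 to 73 and was well above background on 0 of 16 arrays in the liver channel. In the reference channel it was well above background on 4 of 16.

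**Figure D4:**
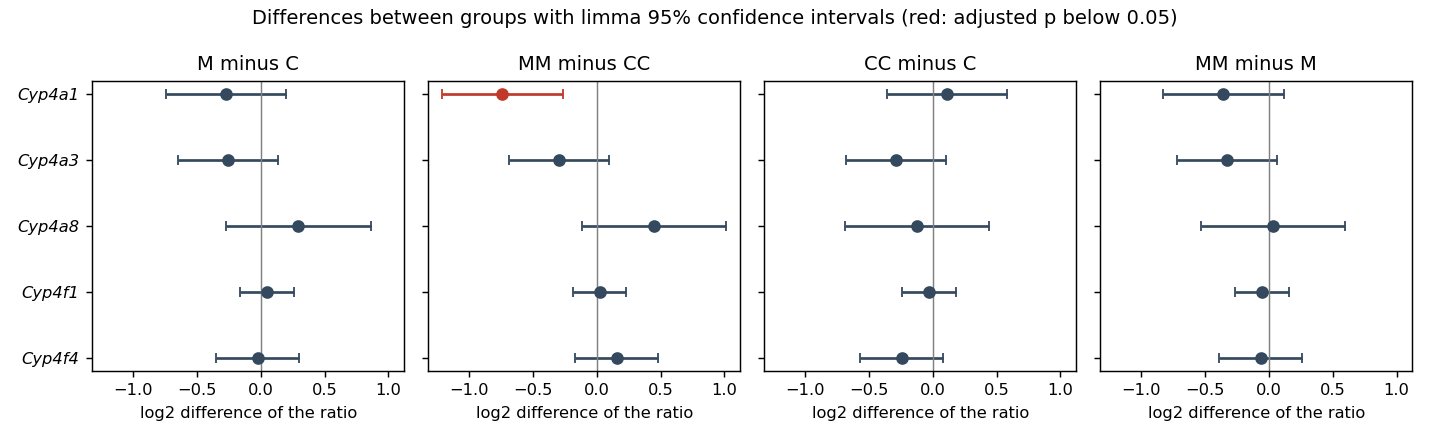
Differences of the log2 ratio between groups for the 5 tested Cyp4 genes, with 95% confidence intervals from limma. Only Cyp4a1 in MM minus CC, at -0.74, is called (red), and every other interval in the 4 panels includes 0.

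Cross-fostering was compared within a slide. None of the 5 genes was called in CC minus C or in MM minus M, and 0% of all genes were called in either. At an unadjusted p below 0.05 limma gave 0 of the 5 genes in both, and 335 and 274 of all genes. For Cyp4a1 the difference was -0.36 in MM minus M (interval -0.83 to 0.11), and it was -0.05 without MM 3. For Cyp4a3 the difference was -0.33 in MM minus M (interval -0.72 to 0.06) and -0.29 in CC minus C (interval -0.69 to 0.10). Nor was any of the 5 called in the interaction of mixture and cross-fostering, where 0% of all genes were called and limma gave 0 of the 5 genes and 349 of all genes at an unadjusted p below 0.05.

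The reference channel holds no pup RNA, yet between slide 2 and slide 1 it differed for 75.7% of all genes. For the 5 tested Cyp4 genes 4 were called, with log2 differences in Cy3 of 0.13 for Cyp4a1 (adjusted p = 0.0162), -0.12 for Cyp4a3 (adjusted p = 0.000131, with Cy3 not above background), 0.13 for Cyp4a8 (adjusted p = 0.0323) and -0.19 for Cyp4f1 (adjusted p = 0.00170). Cyp4f4, at -0.01, was not. A higher Cy3 level lowers the ratio. Beside its Cy3 difference, Cyp4a1 had a Cy5 difference of -0.37 (adjusted p = 0.0847), so both channels moved its ratio the same way. For Cyp4f1 the Cy5 difference was -0.15 (adjusted p = 0.126), of the same sign as that in Cy3. The Cy5 differences of Cyp4a8 (0.51, adjusted p = 0.0959) and Cyp4f4 (0.06, adjusted p = 0.721) did not pass.

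**Figure D5:**
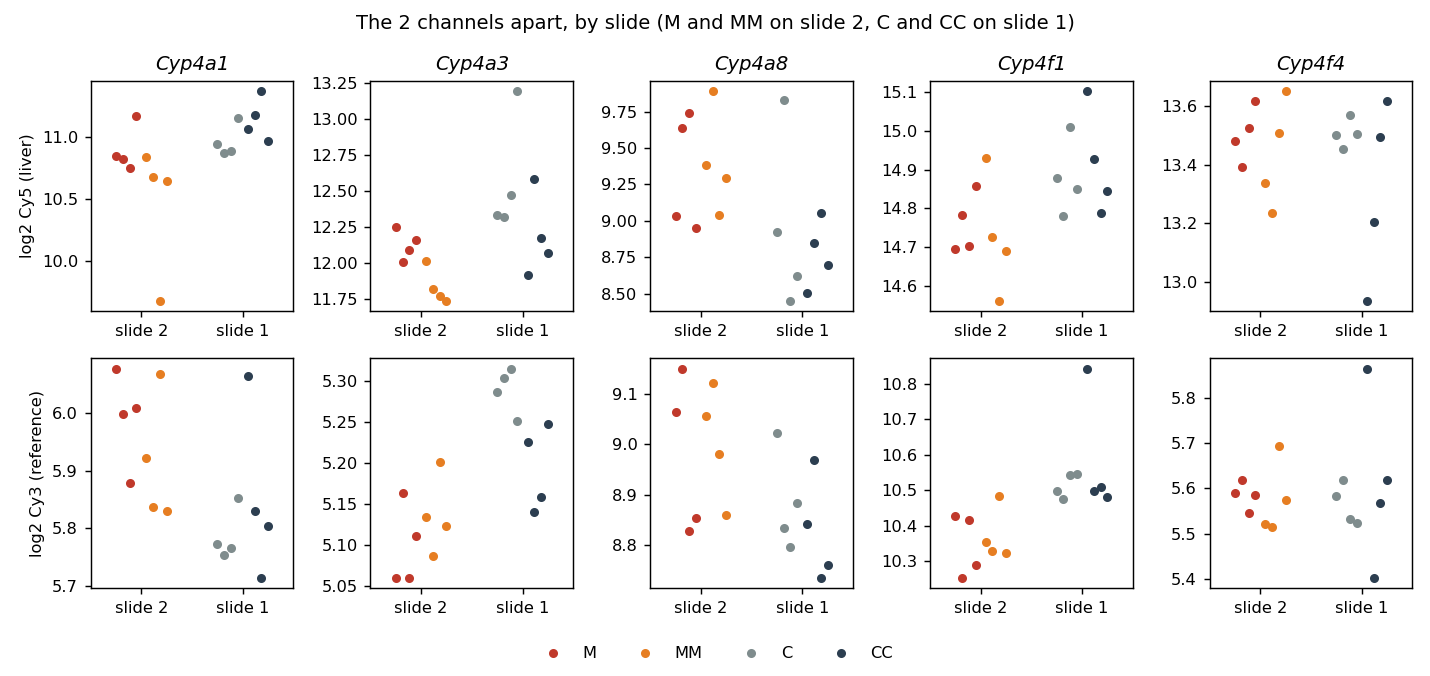
Log2 level of the 5 tested Cyp4 genes in each channel, by slide, one point per array. The upper panels give the liver channel (Cy5) and the lower panels the reference channel (Cy3). In Cy3 the points of Cyp4f1 lie mostly lower on slide 2 than on slide 1 (difference -0.19), with MM 3 among the slide 1 values, and those of Cyp4a1 mostly higher (0.13).

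Every group on a slide had 2 of its arrays in row 1 and 2 in row 2. Between row 2 and row 1 none of the 5 Cyp4 genes was called on slide 2, where 15.5% of all genes were called, or on slide 1, where 0.00828% were. At an unadjusted p below 0.05 limma gave 0 of the 5 genes on both slides, beside 3843 of all genes on slide 2 and 2053 on slide 1. The differences ran from -0.22 for Cyp4a1 to 0.18 for Cyp4f4 on slide 2, and from -0.28 for Cyp4a3 to 0.43 for Cyp4a8 on slide 1.

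Of 16 listed genes of the Cyp4 family, the 7 above included, 10 were tested. None was called in M minus C, where limma gave 2 at an unadjusted p below 0.05, beside 20.4% of all genes called and 33.6% at that unadjusted p. In MM minus CC 2 were called lower, Cyp4a1 and Cyp4f6, beside 12.3% of all genes. Cyp4f6, a leukotriene and fatty acid hydroxylase, gave 4.15, 3.85, 3.47 and 4.10 on MM 1 to MM 4, against 4.17, 4.29, 4.34 and 4.27 on CC 1 to CC 4. All MM arrays were below all CC arrays, and MM 3 was again the lowest (difference -0.38, adjusted p = 0.0366). Without MM 3 only Cyp4a1 of the 10 was called, beside 10.9% of all genes called lower. Without CC 1 and CC 2 none was, beside 6.65% of all genes called lower and 5.57% higher. Closest to the threshold in M minus C were Cyp4f40 (0.36, adjusted p = 0.0504) and Cyp4v3 (-0.38, adjusted p = 0.0977), and neither passed. On MM 3, 8 of the 10 genes had their lowest value of the 4 MM arrays, as had 37.2% of all genes. On the same array the summed Cy5 level of 10 Kupffer cell and leukocyte markers was 20395, the lowest of all 16 arrays. The other MM arrays were at 24435 (MM 1), 32102 (MM 2) and 24281 (MM 4). The lowest of the other groups were 24683 in M, 29915 in C and 27498 in CC, so MM 1 and MM 4 also lay below these. In MM minus CC, 3 of these 10 markers were called lower (Coro1a, Marco and Ptprc), beside 12.3% of all genes, and none in Cy5 alone. The same 3 were called lower without MM 3, beside 10.9% of all genes. The summed level of the 4 endothelial markers tested, of 7, was also lowest on MM 3, at 5785. The part of these cells in the low values of MM 3 was not tested.

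Of 30 PPARalpha targets outside the Cyp4 family that were tested, 3 were called lower and 0 higher in M minus C, and 4 lower and 0 higher in MM minus CC, beside 12.2% and 12.3% of all genes called lower. The median difference was -0.10 in M minus C and -0.07 in MM minus CC. Crat, which exchanges acyl groups between coenzyme A and carnitine, gave -0.47, -0.71, -0.92 and -0.65 on MM 1 to MM 4, against -0.07, 0.46, 0.09 and -0.15 on CC 1 to CC 4. The groups did not overlap (difference -0.77, adjusted p = 0.00136). Crat was the 1 gene of the 30 also called in Cy5 alone (-0.85, adjusted p = 0.00300), beside 2.9% of all genes. In M minus C it was not called and the groups overlapped. There C 12, at -0.30, lay among the M arrays, at -0.37 to -0.25, and the other C arrays, at 0.09 to 0.30, lay above them. Decr1, a reductase that unsaturated fatty acids need in beta-oxidation, differed by -0.54 in M minus C and -0.57 in MM minus CC, but by only -0.10 and -0.14 in Cy5 alone, and its Cy3 differed by 0.44 between slides. The others called were Cpt2 (-0.28) and Ehhadh (-0.51) in M minus C and the thiolases Acaa1a (-0.42) and Acaa1b (-0.38) in MM minus CC. Without MM 3, Crat, Decr1 and Cpt2 were called lower in MM minus CC and Acadm higher, beside 10.9% of all genes called lower and 7.58% higher. Without CC 1 and CC 2, 3 were called lower, Crat and Decr1 among them, and 1 higher, beside 6.65% and 5.57% of all genes.

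Among 19 genes of the steps that follow omega-hydroxylation, 1 was called higher and 2 lower in M minus C, and 1 higher and 3 lower in MM minus CC, beside 8.2% and 7.84% of all genes called higher and 12.2% and 12.3% called lower. The median difference was -0.08 in M minus C and -0.11 in MM minus CC. Aldh1a1, a cytosolic aldehyde dehydrogenase, gave 5.84, 5.68, 5.87 and 5.35 on M 5 to M 8, against 3.24, 3.76, 4.37 and 4.64 on C 9 to C 12. The groups did not overlap. Its differences were 1.69 in both comparisons, and it was called in Cy5 alone as well. Abcd3, a peroxisomal transporter, was called lower in both (-0.30 in M minus C and -0.29 in MM minus CC), but not in Cy5 alone. Ehhadh, Acaa1a and Acaa1b, already named among the PPARalpha targets, made up the rest. Without MM 3, as without CC 1 and CC 2, Abcd3 was the only gene of the list called lower in MM minus CC. Of all genes 10.9% and 6.65% were called lower in these 2 fits.

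Cyp4 enzymes draw electrons from P450 reductase and cytochrome b5. Of 6 genes of this supply, 3 were called higher in each comparison, and none lower, beside 8.2% of all genes called higher in M minus C and 7.84% in MM minus CC. The median difference was 0.32 in M minus C and 0.29 in MM minus CC. Por, the reductase, gave 2.10, 1.88, 1.80 and 1.78 on M 5 to M 8, against 1.02, 1.37, 0.79 and 0.98 on C 9 to C 12. The groups did not overlap, with differences of 0.85 in M minus C and 0.97 in MM minus CC. Cyb5a, cytochrome b5, differed by 0.68 and 0.58, and Cyb5r3, its reductase, by 0.66 and 0.57. Of the 3, only Cyb5a was called in Cy5 alone, beside 3.2% of all genes in M minus C and 2.9% in MM minus CC. Between slides the Cy3 level of Por differed by -0.46 and that of Cyb5r3 by -0.31. The count was 3 of 6 in MM minus CC also without MM 3, and without CC 1 and CC 2, beside 7.58% and 5.57% of all genes called higher.

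Of 13 genes that handle arachidonate and leukotrienes, 2 were called higher in each comparison and 2 lower in MM minus CC, beside 8.2% and 7.84% of all genes called higher and 12.3% called lower. The median difference was -0.07 in M minus C and -0.14 in MM minus CC. Ephx1, microsomal epoxide hydrolase, differed by 1.65 in M minus C and 1.49 in MM minus CC, and was also called in Cy5 alone. The other, Cyp2c11, an arachidonate epoxygenase of male rat liver, was above background on all 4 M and all 4 MM arrays, against 1 of 4 in C and in CC. It passed the filter only through the groups where it was higher, so its place in the count follows in part from the filter and no size is given. Ptgs1, a cyclooxygenase (-0.40), and Lta4h, leukotriene A hydrolase (-0.23), were called lower in MM minus CC and not in Cy5 alone. Lta4h was called neither without MM 3 nor without CC 1 and CC 2. Ptgs1 was called in both of these fits, where 10.9% and 6.65% of all genes were called lower. Of 11 nuclear receptors and cofactors, none was called in M minus C, beside 20.4% of all genes. There limma gave 2 at an unadjusted p below 0.05, Ahr (0.35, adjusted p = 0.0706) and Nr1h4 (-0.55, adjusted p = 0.0807), beside 33.6% of all genes. Ppard, a fatty acid receptor related to PPARalpha, was the 1 gene called lower in MM minus CC, beside 12.3% of all genes. It was above background on 2 of 4 MM and all 4 CC arrays, and on 2 of 4 M and 3 of 4 C arrays. It passed the filter only through C and CC, so its place in the count follows in part from the filter and no size is given. In Cy5 alone Ppard was not called (adjusted p = 0.587). Without MM 3, Ahr and Ppard were called in MM minus CC, 1 higher and 1 lower, beside 7.58% of all genes called higher and 10.9% lower. Without CC 1 and CC 2 none of the 11 was called, beside 6.65% of all genes called lower and 5.57% higher. The median difference over the 11 was -0.07 in M minus C and -0.06 in MM minus CC. Ppara itself, the gene of PPARalpha, differed by 0.28 in M minus C (adjusted p = 0.418) and by -0.27 in MM minus CC (adjusted p = 0.441), and did not pass.

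As departures from group means over the 16 arrays, genes most like Cyp4a1 included Gstm7 (r = 0.94) and Kdr (r = 0.89), and without MM 3 the correlations were 0.85 and 0.74. Both were low on MM 3. Gstm7, a glutathione transferase, was at 4.22 on MM 3, against 4.90 to 4.98 on the other MM arrays. Kdr, a liver endothelial marker, was at 6.0 there, against 6.49 to 6.63. Most like Cyp4a3 were Mtif2 (0.93), Pgam5 (0.85) and Ech1 (0.85). Of the C arrays, all 3 were highest on C 9. For Cyp4a8 they were Cth (0.82), Rasd2 (0.78) and Crcp (0.78), for Cyp4f1 Psmc1 (0.87), Tmub1 (0.86) and Tbccd1 (0.86), and for Cyp4f4 Serpinf2 (0.93), Timd2 (0.92) and Serpind1 (0.92). Between the 5 members themselves the highest was 0.67, for Cyp4a1 with Cyp4f1. Without MM 3 that pair was at 0.42, and the highest was Cyp4a1 with Cyp4f4 at 0.45.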

How the data were processed

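Spots were read with Agilent Feature Extraction 11.0.1.1, per the file headers. The deposited files give, for Cy5 and Cy3, the median intensity of a spot and of its surroundings. Per the file headers, the same software made the log10 ratio that stands beside them. The authors' deposited values for the whole series are log2 ratios whose normalization is not given in the sources used here. They correlated with the ratios computed here at 0.996 to 0.997 per array, with array medians of -0.05 to -0.04. Of all spots, 46.2% to 53.9% were detected in Cy5 by the scanner's own flag (well above background), with 0 saturated spots. Precision is limited by how many arrays there were.

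Background was corrected with normexp (offset 50), outlier spots were left out, and loess was applied to the ratios of each array. Replicate spots were averaged. A probe was kept where that flag was set on 3 or more of a group's 4 arrays, which left 13262 of 30367 probes. Symbols came from RefSeq identifiers (18005 probes matched), and a gene's brightest kept probe was used for it. In R 4.3.3, limma 3.58.1 fitted the 4 group means over the 16 arrays (files read with jsonlite 2.0.0 and the data.table package, version 1.17.8). Tests were two-sided and adjusted by Benjamini-Hochberg over 12072 genes or identifiers. Single-channel values came from loess and Aquantile. The procedure was tested on simulated data. Same-numbered arrays of MM and CC had deviations that correlated at r = 0.34, 0.06, 0.18 and 0.10, and different-numbered ones at -0.34 to 0.28. Not all of the same-numbered values were over 0.1, so the numbers were not taken as pairs. That limit is no test of pairing, and a fit with the pairs is given below.

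The text names all 7 Cyp4 genes. From each gene list other than the cell markers it names up to 4 called members with the smallest p. Of the cell marker lists only called members were named by this rule. Besides those above, Epcam, 1 of 4 cholangiocyte markers tested, was called higher. Its differences were 0.42 in M minus C and 0.64 in MM minus CC, beside 8.2% and 7.84% of all genes called higher. Epcam was not called in Cy5 alone, and its Cy3 differed by -0.59 between slides. Likeness takes the 3 genes with the highest r, of which 1 is not reported here. Where a list other than the cell markers had no called member, up to 2 with the smallest p are named. Ppara, Acadm and the values of genes on single arrays were added after values were seen. The members, lists and tests were chosen with earlier results of these data known. The gene lists overlap. Alternatives were another background correction and scaling, the filter, the probes of a gene, array row, the scanner ratio, the series table and each array left out.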

Additional observations from a re-analysis of the deposited data

Results flagged for a closer look

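Cyp4a1 on array MM 3 had a log2 ratio of 3.62, with the nearest MM array at 4.82, and that gap was 0.926 of the whole range of the 4 MM arrays, above Dixon's 95% critical value. Cyp4a3 on array C 9 had a log2 ratio of 7.94, with the nearest C array at 7.16, a gap of 0.850 of the range. These were 2 of the 20 groups of 4 arrays tested over the 5 genes, and chance gives about 1 in 20.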

How the results depend on the processing

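Over 795 recomputed tests of the 5 Cyp4 genes, 784 stayed on their side of the threshold, 10 lost their call, 1 gained one, and no called value changed sign. In 85 of them a difference that was called in neither fit had the opposite sign. All 11 changes concerned Cyp4a1. In M minus C the number of Cyp4 genes called was 0, and it was 1 with the scanner software's log ratio. In MM minus CC it was 1, and it was 0 with Cy5 alone, with the scanner software's log ratio, with only the groups of the comparison (adjusted p = 0.103), with array row 1 only and with row 2 only. When 1 array was left out in turn it ran from 0 to 1, and the Cyp4a1 difference from -0.86 to -0.43. The fit with the replicate block, which pairs MM and CC by number, called 0 (Cyp4a1 -0.74, adjusted p = 0.129). Alternatives chosen after seeing the data also called 0, namely Cy5 alone without MM 3 (Cyp4a1 -0.42, adjusted p = 0.0669) and CC 1 and CC 2 left out. The list counts without MM 3, or without CC 1 and CC 2, were also added then. The cause of these changes was not tested.

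Counts over all genes in M minus C were 2467, and 386 with Cy5 alone, 4028 with the scanner ratio, 844 in row 1 and 709 in row 2. In MM minus CC they were 2428, and 350 with Cy5 alone, 3963 with the scanner ratio, 4941 with median centring, 1556 with only the 2 groups, 597 in row 1, 1224 in row 2, 310 with Cy5 alone without MM 3 and 1475 without CC 1 and CC 2. In MM minus CC 946 were higher and 1482 lower, against 873 and 4068 with median centring and 1123 and 1040 in the series table. In Cy5 alone 270 were higher and 80 lower, and 250 and 136 in M minus C, where the ratio gave 990 and 1477. Between rows on slide 2 the 1872 calls were 0 with the scanner ratio, 11 with median centring and 1236 with no filter, and 377 without MM 1, the lowest with 1 array left out. On slide 1 the 1 call ran from 0 to 6. In row 1 only, 24 genes were called in CC minus C, 1 in MM minus M and 19 in the interaction, where the other fits had 0. Signal over background limits Cyp4a2, Cyp4b1 and the reference channel of Cyp4a3, of the dimmer Cyp4a8 probe and, on some arrays, of Cyp4f4.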
